A study of Mus musculus with 4 samples.

Results

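Type I interferon-stimulated genes, 36 of them listed by name, were followed in the inflamed mouse colon with and without STAP-2, an adaptor protein of cytokine signalling. A member was taken from the array through the RefSeq accession of its probe, and where a gene had several probes the brightest one stood for it. Probes were found for 34 of the 36 listed genes, out of 20832 genes named on the array; no probe was matched for the antiviral GTPases Mx1 and Mx2. All 34 were well above background on all 4 arrays, so all 34 entered the tests. The C57BL/6J mice were wild type (WT) or lacked STAP-2 (STAP-2-/-) and were 14 weeks old. Every mouse, WT included, had taken 1.75% dextran sulfate sodium (DSS), which damages the lining of the colon and brings on colitis; the labels give 3 days of DSS in one field and 7 days in another. RNA of whole colons from 3 mice was pooled for each array, and each genotype has 2 pools, called WT 1, WT 2, STAP-2-/- 1 and STAP-2-/- 2 after the replicate numbers in the sample titles. There is no group without DSS, and the labels do not say how the STAP-2-/- allele was made.

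Type I interferons are cytokines that cells release on sensing foreign or misplaced nucleic acid. They bind the Ifnar1 and Ifnar2 receptor chains, and the kinases Jak1 and Tyk2 then act through a factor, with Stat2 and Irf9 among its subunits, that binds the interferon-stimulated response element in the promoters of its targets. The targets include sensors, antiviral effectors, the ubiquitin-like modifier Isg15 with its enzymes, and Irf7, which amplifies further interferon production. In the gut such genes are active at low level at rest. Many of them also respond to type III interferon, which acts on epithelium, and to interferon gamma from lymphocytes.

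The response element is printed here for the 5 members that differ most between the STAP-2-/- pools among those found to hold it and, for contrast, for Oas1a, whose values differ little. RefSeq promoter windows of 300 bases (250 before and 50 after the gene's start, build GRCm38.p6) were at hand for 26 of the members. Each was searched on both strands for the core of the response element, which is GAAA, any 2 bases and GAAA again. Capitals mark the core or its reverse complement, overlapping copies run together, and every stretch reads 5′ to 3′ on the gene's own strand.
Ifit1 (chr19:34640768-34640849, plus strand): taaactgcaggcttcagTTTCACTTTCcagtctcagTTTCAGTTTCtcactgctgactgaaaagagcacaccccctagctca
Ifit3 (chr19:34583371-34583452, plus strand): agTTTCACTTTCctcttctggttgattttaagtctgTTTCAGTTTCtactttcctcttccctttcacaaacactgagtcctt
Isg15 (chr4:156200839-156200920, minus strand): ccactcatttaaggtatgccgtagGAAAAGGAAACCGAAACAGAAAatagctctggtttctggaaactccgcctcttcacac
Oas3 (chr5:120777689-120777770, minus strand): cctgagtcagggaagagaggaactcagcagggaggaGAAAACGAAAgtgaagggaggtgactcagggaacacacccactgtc
Rsad2 (chr12:26456527-26456608, minus strand): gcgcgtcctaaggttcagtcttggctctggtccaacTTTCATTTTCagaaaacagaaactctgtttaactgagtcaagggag
Oas1a (chr5:120907526-120907575, minus strand): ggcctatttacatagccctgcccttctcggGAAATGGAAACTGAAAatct

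The copy nearest the start lay 76 bases before it in Ifit1, 113 in Ifit3, 57 in Isg15, 66 in Oas3, 111 in Rsad2 and 5 in Oas1a. A core was present in the window of 12 of the 26 members (46.2%), against 3.99% of the 27025 genes with a promoter window. A longer form, the core followed by CT, was present in 7 members (26.9%) and in 0.303% of all genes. The gamma-activated site TTCNNNGAA was present in 6 members (23.1%) and in 9.55% of all genes, and 1 of its 6 hits in members overlapped a response element. A match describes letters within this window and no more.

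The 34 genes were nearly always highest on 1 array, STAP-2-/- 2, and lay close together on the other 3. STAP-2-/- 2 was the highest of the 4 arrays for 31 of the 34 members, as it was for 26.3% of the 15806 genes tested. It was at least 2-fold above the highest other array for 14 members, against 0.671% of all genes. For 28 members the gap between STAP-2-/- 2 and the next array was larger than the whole range of the other 3 arrays, against 7.56% of all genes. That range over WT 1, WT 2 and STAP-2-/- 1 had a median of 0.29 over the members and 0.32 over all genes. Values are log2 of the processed signal minus the 75th percentile of the array, so 0 is the 75th percentile and a step of 1 is a 2-fold difference; they are given below in the order WT 1, WT 2, STAP-2-/- 1 and STAP-2-/- 2, and compare arrays for 1 gene, not genes with each other.

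**Figure D1:**
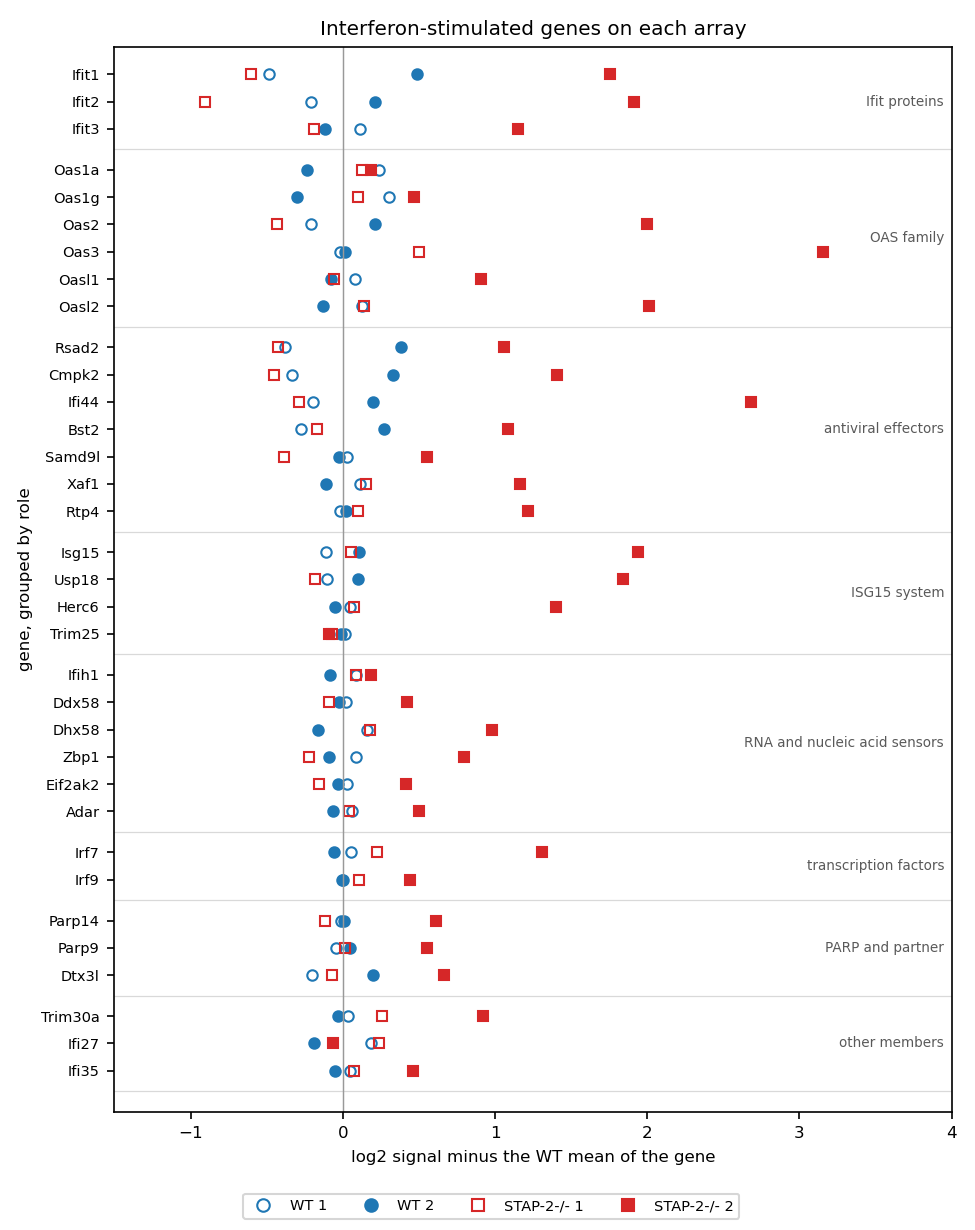
Each row is 1 of the 34 interferon-stimulated genes, grouped by role; the horizontal axis is the log2 signal on each array minus the mean of the 2 WT arrays, and each point is 1 array (circles WT, squares STAP-2-/-; open number 1, filled number 2). The filled square, STAP-2-/- 2, is the rightmost point for 31 genes, and the exceptions are Oas1a, Trim25 and Ifi27.

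The Ifit proteins bind foreign RNA and block its translation. Ifit1 read -1.77, -0.80, -1.89 and 0.47. Ifit2 read -2.38, -1.96, -3.07 and -0.26, and Ifit3 read -0.54, -0.77, -0.84 and 0.50. For all 3 genes STAP-2-/- 1 was the lowest array and STAP-2-/- 2 the highest, so the STAP-2-/- values enclosed both WT values. STAP-2-/- 2 was 7.05-fold above STAP-2-/- 1 for Ifit2, 5.15-fold for Ifit1 and 2.53-fold for Ifit3. WT 2 was 1.96-fold above WT 1 for Ifit1 and 0.852-fold for Ifit3, so the pools of WT did not order these genes alike. Ifit3 has a near-identical neighbour, Ifit3b, and whether the probe tells them apart was not analysed here.

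The OAS family, made up of enzymes that make the messenger which activates RNase L together with their inactive relatives, divided into genes with a wide and genes with a narrow range. Oas3 read -4.81, -4.78, -4.29 and -1.64, and Oas2 read -1.19, -0.78, -1.42 and 1.01. Oasl2 read 0.83, 0.57, 0.84 and 2.71, and Oasl1 read 2.24, 2.08, 2.10 and 3.07. STAP-2-/- 2 stood above the next array by 2.65 for Oas3, 1.87 for Oasl2, 1.79 for Oas2 and 0.83 for Oasl1. Oas3 was the member furthest above the other arrays, 8.78-fold above WT 2. Oas1a read 4.55, 4.08, 4.44 and 4.51, with WT 1 highest, and Oas1g read -5.10, -5.70, -5.30 and -4.93. For Oas1a the arrays of both genotypes overlapped and STAP-2-/- 2 was 1.04-fold STAP-2-/- 1, although its promoter holds the element as that of Oas3 does. The second Oas1a probe read 1.83, 1.33, 1.82 and 2.05, so with it STAP-2-/- 2 was the highest array, and the genotypes again overlapped. Oas1a and Oas1g are close copies, and how far their probes cross-hybridise was not analysed here. All 6 OAS family members lie on chromosome 5, where Oas2 and Oas3, Oas1g and Oas1a, and Oasl2 and Oasl1 are next to each other.

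Among the antiviral effectors, Ifi44, an interferon-induced cytoplasmic protein, read -3.31, -2.92, -3.41 and -0.43. Its 7.86-fold difference between the STAP-2-/- pools was the largest among the members, against 1.31-fold between the WT pools. Rsad2 (viperin), which makes a chain-terminating nucleotide, read -1.92, -1.16, -1.96 and -0.48. Cmpk2, a mitochondrial nucleotide kinase next to Rsad2 on chromosome 12, read -1.90, -1.24, -2.02 and -0.17. Both had WT 2 between the arrays numbered 1 and STAP-2-/- 2, as Ifi44 had. The second probe of Cmpk2 gave a smaller difference between the STAP-2-/- pools, by 1.31 on the log2 scale, in the same direction. That probe read -3.23, -3.21, -2.80 and -2.25, with WT 2 below STAP-2-/- 1.

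Bst2 (tetherin), which holds budding virus at the cell surface, read 1.004, 1.55, 1.11 and 2.36, with both arrays numbered 2 above both numbered 1. Xaf1, a pro-apoptotic partner of XIAP, read -0.58, -0.80, -0.54 and 0.48. Rtp4, a receptor transport protein, read 1.27, 1.31, 1.39 and 2.50. For Xaf1 and Rtp4 the groups did not overlap, but STAP-2-/- 1 lay above the higher WT array by less than 0.14, and STAP-2-/- 2 by more than 1. The 0.14 is the size that repeated spots of 1 array can give (2 SD of a difference between single spots). It uses the median SD over 399 probes spotted several times, so it describes a typical probe. It was not set by brightness and does not take in variation between arrays. Samd9l, a restriction factor of poxviruses, read 2.89, 2.83, 2.47 and 3.41, and here the STAP-2-/- values again lay on either side of the WT values.

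Isg15, its protease Usp18 and the ligase Herc6 each had STAP-2-/- 2 as the highest array, while the order of the other 3 arrays differed among them. Isg15 read 1.40, 1.62, 1.57 and 3.45, Usp18, which also damps signalling at Ifnar2, read -2.36, -2.16, -2.44 and -0.42, and Herc6 read -3.88, -3.97, -3.85 and -2.53. STAP-2-/- 2 was 3.70-fold, 4.07-fold and 2.51-fold above STAP-2-/- 1 for these genes, while WT 2 was 1.16-fold, 1.15-fold and 0.935-fold WT 1. The second Isg15 probe gave a difference of 2.20 between the STAP-2-/- pools, against 1.89 for the probe used. Trim25, a ligase that acts on Isg15 and on the sensor RIG-I, read 4.25, 4.23, 4.17 and 4.15. Trim25 was thus the 1 member of this system without a high value on STAP-2-/- 2, and its groups did not overlap, with WT higher by 0.082.

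The sensors had a lower median difference than the effectors. Dhx58 (LGP2) read -1.67, -1.995, -1.65 and -0.86, and Zbp1, which senses left-handed nucleic acid, read 0.85, 0.68, 0.54 and 1.56. Zbp1 was the 1 sensor at least 2-fold apart between the STAP-2-/- pools (2.03-fold). Ddx58 (RIG-I) read 0.25, 0.20, 0.14 and 0.65, the kinase Eif2ak2 (PKR) -0.20, -0.26, -0.38 and 0.19, and the RNA-editing enzyme Adar 0.58, 0.46, 0.56 and 1.02. Ifih1 (MDA5) had the smallest gap of the sensors with the brightest probes, at 1.61, 1.44, 1.61 and 1.71. Its second probe read -3.61, -3.88, -3.65 and -3.11, a wider gap, so this rank depends on the probe. Over the 6 sensors the median difference between the STAP-2-/- pools was 0.54, against 1.26 over the 7 antiviral effectors, 1.42 over the 6 OAS family members, 1.61 over the 4 genes of the Isg15 system and 2.36 over the 3 Ifit genes.

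Of the transcription factors, Irf7 read -0.51, -0.62, -0.34 and 0.74 and Irf9 1.44, 1.45, 1.55 and 1.89. Neither overlapped between the genotypes, and for both STAP-2-/- 1 lay nearer to WT than to STAP-2-/- 2. Parp14 and Parp9, which attach ADP-ribose, and Dtx3l, the ligase that pairs with Parp9, are neighbours on chromosome 16. Parp14 read 1.87, 1.89, 1.76 and 2.49, Parp9 1.24, 1.33, 1.30 and 1.84, and Dtx3l 0.70, 1.103, 0.83 and 1.57. All 3 were between 1.45-fold and 1.66-fold higher on STAP-2-/- 2 than on STAP-2-/- 1.

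Of the remaining members, Trim30a, a ubiquitin ligase that restrains inflammatory signalling, read -2.13, -2.19, -1.90 and -1.24, and Ifi35 0.71, 0.61, 0.73 and 1.12. Both had STAP-2-/- arrays above both WT arrays. Ifi27, a mitochondrial interferon-induced protein, read 3.98, 3.61, 4.04 and 3.73, so both arrays numbered 2 lay below both numbered 1. STAP-2-/- 2 lay below STAP-2-/- 1 for Ifi27, at 0.811-fold, and for Trim25, at 0.988-fold, and above it for the other 32 members.

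No member passed the test between the genotypes. Over the 2 arrays of each genotype, 33 of the 34 members were higher in STAP-2-/- and Trim25 was lower, against 48.1% of all genes higher. The limma fit over 15806 genes called 0 genes in either direction (0%) at a Benjamini-Hochberg adjusted p of 0.05, and the adjusted p was 1 for every member. At an unadjusted p of 0.05 the fit called 119 genes higher (0.753%) and 198 lower (1.25%), among them 0 members; the smallest unadjusted p of a member was 0.0978, for Trim30a. The median difference, STAP-2-/- minus WT, was 0.44 over the members and -0.0077 over all genes. It was 1.82 (SE 0.97) for Oas3, 1.20 (SE 1.09) for Ifi44, 1.08 (SE 0.70) for Oasl2, 0.998 (SE 0.70) for Isg15 and 0.59 (SE 0.27) for Trim30a, each from 2 arrays per genotype. For Ifi44 the mean in WT was -3.12 ± 0.28 and that in STAP-2-/- -1.92 ± 2.10 (each SD, n = 2), and for Isg15 it was 1.51 ± 0.16 and 2.51 ± 1.33. The SD between the pools of a genotype was larger in STAP-2-/- than in WT for 29 members, with medians of 0.70 and 0.13, where 68.9% of all genes had the larger SD in STAP-2-/-, with medians of 0.21 and 0.13.

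The genotypes did not overlap for 11 members. STAP-2-/- lay above WT for 10 of them, against 11.3% of all genes, namely Oas3, Oasl2, Xaf1, Rtp4, Herc6, Dhx58, Irf7, Irf9, Trim30a and Ifi35. It lay below for Trim25, against 13.2% of all genes. For Oasl2, Xaf1, Rtp4, Herc6, Dhx58, Irf9 and Ifi35, STAP-2-/- 1 lay above the higher WT array by less than the 0.14 of repeated spots. The gap between the nearest arrays of Trim25 was also below 0.14. These counts are by the brightest probes. With the second Herc6 probe (-3.88, -3.76, -3.97 and -2.75) the genotypes overlapped. They also did with the second Xaf1 probe (-6.29, -7.65, -6.34 and -5.80), well above background on 2 arrays. Other second probes went the opposite way, with STAP-2-/- above WT without overlap. These were Cmpk2 (-3.23, -3.21, -2.80 and -2.25), Adar (0.091, 0.0082, 0.26 and 0.51) and Dtx3l (-4.30, -4.47, -4.21 and -4.00). The median difference rests on STAP-2-/- 2. Without that array it was -0.022, with 17 of the 34 members higher, and without STAP-2-/- 1 it was 0.95, with 32 higher. Leaving out STAP-2-/- 2 turned the sign of 16 members by the brightest probes, among them Ifit1, Ifit2, Oas2, Ifi44 and Usp18. Cmpk2 and Dtx3l are in this count, but with their second probes STAP-2-/- 1 lay above both WT arrays. Herc6 and Isg15 are not in it, but with their second probes STAP-2-/- 1 lay below the WT mean (Isg15 -2.31, -1.91, -2.20 and -0.0026). The p-values measure the spread between these 4 samples, which the titles call biological replicates, and with 2 arrays per genotype the SE of a member ran from 0.12 to 1.09.

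**Figure D2:**
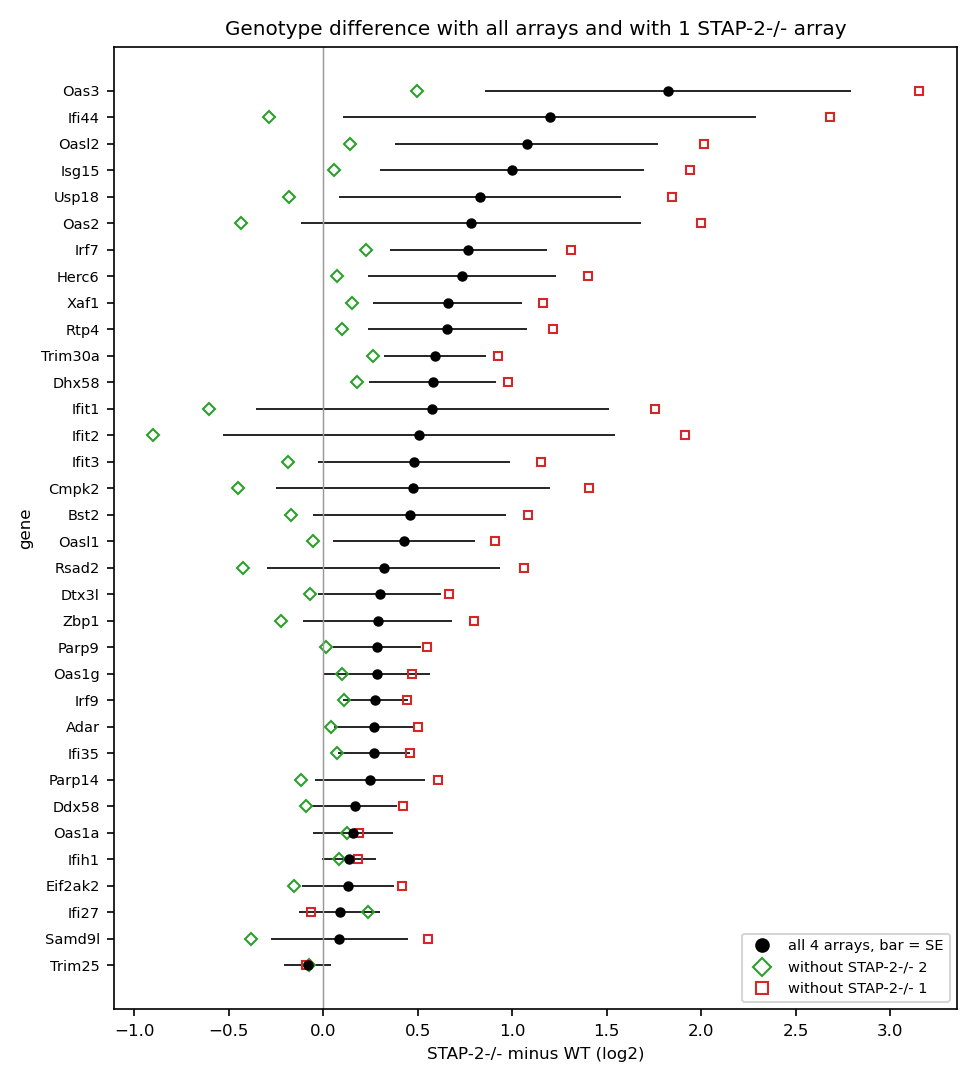
For each of the 34 genes, the black point is the log2 difference STAP-2-/- minus WT over all 4 arrays with its standard error from the limma fit (bar), the green diamond the difference without STAP-2-/- 2 and the red square the difference without STAP-2-/- 1. The diamonds lie around 0, with a median of -0.022, and the squares around a median of 0.95.

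The arrays with equal numbers were set side by side to see which pool carried the difference. Between WT 1 and STAP-2-/- 1 no member was 2-fold apart, where 1.19% of all genes were at least 2-fold higher and 1.25% at least 2-fold lower. The median difference was -0.033, and 23 members differed by less than that 0.14 of repeated spots. No share over all genes is given for this count, so it is not read as a trait of the members. Between WT 2 and STAP-2-/- 2 the median difference was 0.92, and 15 members were at least 2-fold higher, against 1.34% of all genes. These contrasts have 1 array a side and no test.

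Pools of the same genotype were compared in the same way. Within STAP-2-/-, number 2 was higher than number 1 for 32 of 34 members (46.3% of all genes), at least 2-fold for 17 (4.38%), with a median of 0.99. The 17 genes were the 3 Ifit genes, Oas2, Oas3, Oasl2, Rsad2, Cmpk2, Ifi44, Bst2, Xaf1, Rtp4, Isg15, Usp18, Herc6, Zbp1 and Irf7. Within WT the median was -0.051, no member was 2-fold apart (2.26% of all genes were at least 2-fold higher and 1.84% at least 2-fold lower), and beyond 0.14 in size 10 members were higher and 10 lower. For the counts beyond 0.14 no share over all genes is given. The median SD between the WT pools was 0.13 over the members and 0.13 over all genes. Ifit1 (1.96-fold), Rsad2 (1.69-fold), Cmpk2 (1.58-fold) and Bst2 (1.46-fold) had the largest differences towards WT 2. With the second Cmpk2 probe the log2 difference between the WT pools was 0.024. Across the 34 members the WT and the STAP-2-/- pool differences had a Pearson r of 0.61 and a Spearman rho of 0.55, and across all genes 0.54 and 0.67; genes of 1 array share its labelling and hybridisation, so these values describe the arrays only.

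**Figure D3:**
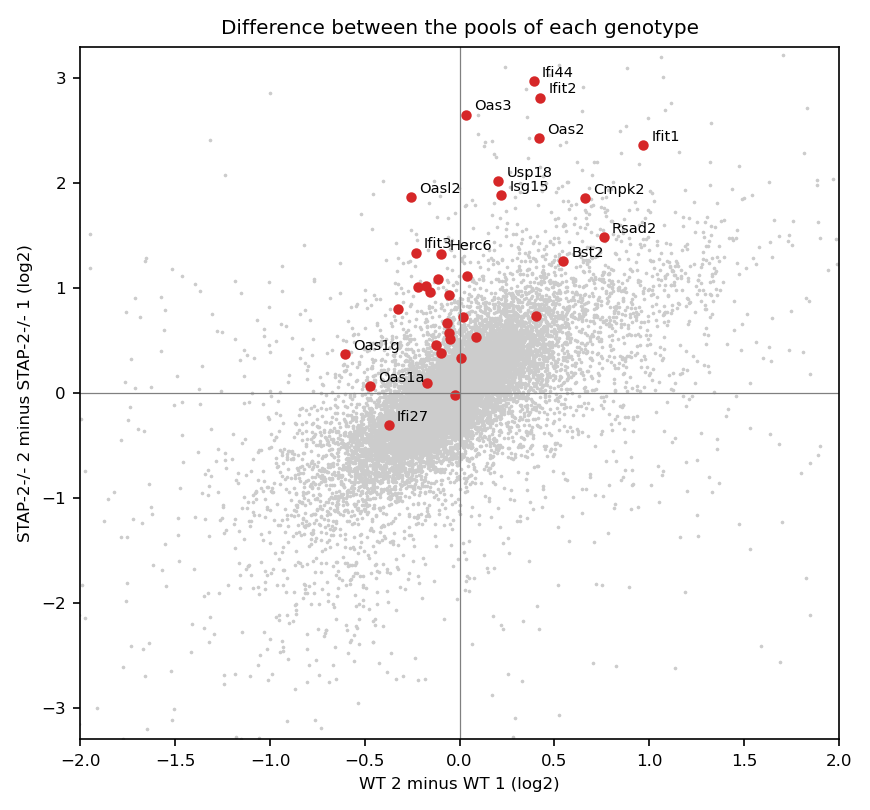
Each point is a gene, with the log2 difference WT 2 minus WT 1 on the horizontal axis and STAP-2-/- 2 minus STAP-2-/- 1 on the vertical axis; red points are the 34 interferon-stimulated genes and grey points the other tested genes within the axis limits. The red points spread upwards to 2.97 (Ifi44) while staying within 1 of 0 on the horizontal axis.

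With both genotypes in 1 comparison, pool number 2 was set against number 1. The arrays numbered 1 lay before those numbered 2 on the slide, so number and position cannot be told apart, and the labels do not say what a number marks. Limma called 0 members, with a lowest adjusted p of 0.129 (Rsad2), and over all genes called 2 higher (0.0127%) and 2 lower (0.0127%). These 4 genes, named after their values were seen, were 1700013G24Rik and Spp1 (higher) and Gucy2f and Olfr615 (lower). On the number where each was lower, its arrays read between -8.985 and -8.448. Ifnb1, not well above background on any array, read between -9.00 and -8.48, so these calls involve values near the floor. At an unadjusted p of 0.05 the members called were Rsad2, Ifit1, Cmpk2, Bst2 and Dtx3l, higher (5 of 34, against 10.7% of all genes), and Ifi27, lower (1 of 34, against 14.6%). Rsad2 differed by 1.12 (SE 0.25), Ifit1 by 1.67 (SE 0.45; adjusted p = 0.148), Cmpk2 by 1.26 (SE 0.38) and Ifi27 by -0.34 (SE 0.11). The numbers did not overlap for 12 members with number 2 higher, against 26.6% of all genes, and for Ifi27 with number 2 lower, against 35.9%. Cmpk2, Dtx3l and Isg15 were among the 12 by their brightest probes. With the second probe the numbers overlapped for Cmpk2 (-3.23, -3.21, -2.80 and -2.25) and Dtx3l (-4.30, -4.47, -4.21 and -4.00), but not for Isg15. In total 29 members were higher, against 44.9% of all genes, with a median of 0.43, which became -0.021 without STAP-2-/- 2 and 0.88 without WT 2.

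Genes that make, carry and restrain the interferon signal were read from a list of 48, of which 44 were found and 39 tested, with 0 called by limma between the genotypes and 1 lower at an unadjusted p of 0.05 (Socs3). The interferon beta gene Ifnb1 and Ifna4, Ifna7, Ifna13 and Ifne were not well above background on any array. The interferon alpha genes that were tested read between -6.14 (Ifna2) and -4.23 (Ifnab). Ifng, the lymphocyte interferon, was well above background on 3 arrays and read -5.17, -4.82, -6.71 and -4.08. It had the order of arrays seen for Ifit1, with STAP-2-/- 1 lowest and STAP-2-/- 2 highest.

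STAP-2-/- 2 was the highest array for 1 of the 6 receptor chains, Il10rb, which serves type III interferon and interleukin 10 and read 1.21, 1.395, 1.10 and 1.404, in the order of Ifit1. Ifnar2 read -0.026, 0.25, -0.27 and 0.19, with both arrays numbered 2 above both numbered 1. Ifnar1 read 0.25, 0.19, 0.093 and -0.12, and Ifnlr1, the epithelial type III receptor chain, 0.82, 0.58, 0.64 and 0.19, both lowest on STAP-2-/- 2. Among kinases and factors, Stat2 read 0.89, 1.16, 0.68 and 1.83, highest on STAP-2-/- 2, while Jak1 read 2.48, 2.35, 2.51 and 2.18. The inhibitor Socs1, itself an interferon target, read -0.80, -0.11, -1.39 and 0.46, and Socs3, a target of Stat3, read 2.09, 2.64, 1.07 and 0.97. For Socs1 the arrays followed the order of Ifit1, and for Socs3 both STAP-2-/- arrays lay below both WT arrays. The median difference between the STAP-2-/- pools was -0.10 over the list, and STAP-2-/- 2 was the highest array for 15 of the 39 genes, against 26.3% of all genes.

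A further list of 61 interferon-stimulated genes, none of them a member and 2 of them also on the signalling list, was found for 57 and tested for 54. Between the genotypes limma called 0 of them, with 3 higher at an unadjusted p of 0.05 (all genes 0.753%), 42 higher in all (all genes 48.1%) and a median of 0.23. Leaving out STAP-2-/- 2 brought this median to -0.080, and leaving out STAP-2-/- 1 brought it to 0.45. Between the STAP-2-/- pools 16 were at least 2-fold higher on number 2 (all genes 4.38%), with a median of 0.53, and STAP-2-/- 2 was the highest array for 38 of the 54 (all genes 26.3%). Of the 6 with the highest mean level, B2m, the light chain of MHC class I, read 5.27, 5.45, 4.93 and 6.38. Lgals3bp, a secreted glycoprotein, read 3.78, 4.15, 3.74 and 4.999, and Ly6e, a membrane protein, 4.07, 3.99, 3.80 and 4.59. The nuclear body protein gene Sp110 read 5.14, 4.86, 5.33 and 5.06, Shisa5 5.07, 5.05, 4.98 and 5.02, and Ms4a4c 4.48, 4.25, 4.69 and 4.43. B2m, Lgals3bp and Ly6e were thus highest on STAP-2-/- 2, and the other 3 were not.

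**Figure D4:**
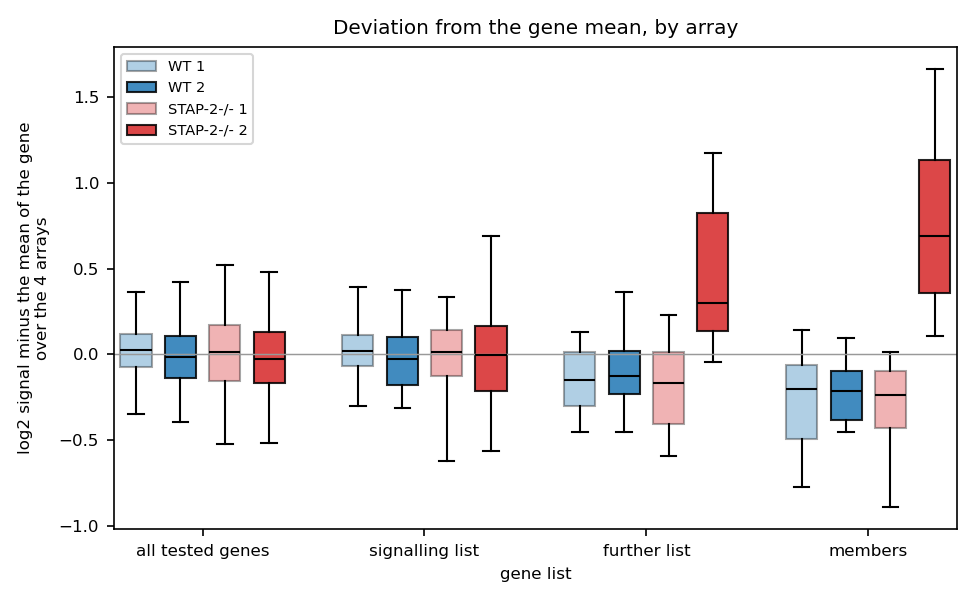
Box plots of the log2 signal on each array minus the mean of the gene over the 4 arrays, for the 15806 tested genes, the 39 of the signalling list, the 54 of the further list and the 34 members; the line is the median, the box the quartiles and the whiskers the 5th and 95th percentiles. The median on STAP-2-/- 2 is 0.69 for the members and 0.30 for the further list, and it is -0.025 for all tested genes and -0.0039 for the signalling list.

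Members with a response element in the window and members without one were close in their values. The median difference between the STAP-2-/- pools was 0.96 over the 12 members with the core, of which 6 were at least 2-fold apart, and 0.99 over the 14 without it, of which 7 were. Among the members furthest apart, Ifi44, Ifit2, Oasl2 and Cmpk2 held no core in any window at hand, and no window was at hand for Oas2 and Usp18. In the further list the core was present in 28 of 53 genes with a window (52.8%).

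Markers of other cells were read beside the members, because whole colon holds many cell types, and in bulk RNA more cells of a type and more RNA per cell cannot be told apart. Marker levels are summed signals in multiples of the 75th percentile of the array, and bright probes weigh most in a sum. The 8 T cell markers found summed to 2.60, 2.84, 3.03 and 4.73, with 7 of the 8 highest on STAP-2-/- 2. Cd8a read -5.58, -5.02, -4.98 and -2.59 and Cd3e -1.14, -1.23, -0.93 and -0.60. The 6 NK and cytotoxic markers summed to 3.50, 2.75, 4.05 and 9.09, with 3 of the 6 highest on STAP-2-/- 2. The granzyme genes Gzma, at -0.21, -0.17, 0.71 and 2.50, and Gzmb, at -2.79, -2.44, -2.27 and 0.63, were among these. Prf1 read -2.86, -2.94, -2.72 and -2.76 and Nkg7 1.21, 0.61, 1.02 and 0.76, and Ncr1, which defines NK cells, was not well above background on any array. The summed level of both lists was thus highest on the array where the members were highest, as Ifng was, although for the NK and cytotoxic list 3 of the 6 genes were not. The part of these lists in the result was not tested.

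B cell markers went the other way, summing to 0.697, 1.78, 1.24 and 0.470, and Ms4a1 was lowest on STAP-2-/- 2 (-4.58 against -3.10, -1.41 and -2.01). Plasmacytoid dendritic cell markers, of cells known to release much type I interferon, summed to 179, 156, 196 and 187, with 2 of 6 highest on STAP-2-/- 2, and macrophage and monocyte markers to between 9.30 and 10.3. The 8 epithelial markers found summed to 379, 354, 379 and 413, and Cdx2, which defines intestinal epithelium, was well above background on every array. The 3 adipocyte markers summed to 12.2, 7.54, 7.10 and 4.36, lowest on STAP-2-/- 2. Of the neutrophil markers, S100a8 read -4.80, -1.11, -4.95 and -3.29 and S100a9 -4.08, 1.02, -3.71 and -1.30, both highest on WT 2. Csf3r read 5.86, 5.64, 5.83 and 5.44, lowest on STAP-2-/- 2. The part of these lists in the members' values was not tested either.

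**Figure D5:**
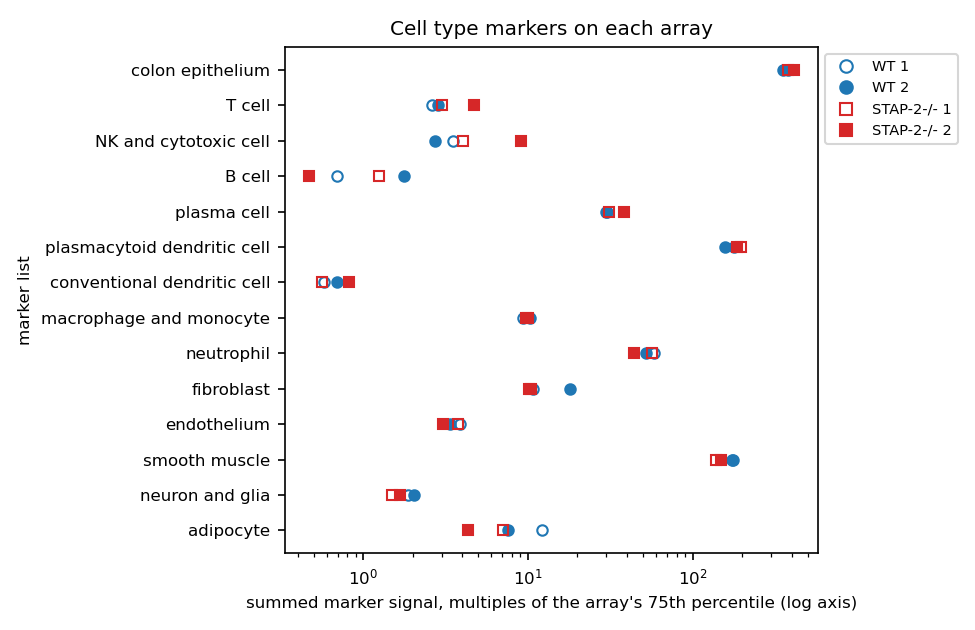
Summed signal of 14 cell type marker lists on each array, in multiples of the 75th percentile of the array on a log axis; circles are WT and squares STAP-2-/-, open number 1 and filled number 2. STAP-2-/- 2 is set apart to the right for T cell (4.73) and NK and cytotoxic cell (9.09) markers and to the left for B cell (0.470) and adipocyte (4.36) markers. By a smaller ratio it is also the highest array for plasma cell (38.5), conventional dendritic cell (0.81) and colon epithelium (413) markers.

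The arrays themselves were alike in brightness. Their 75th percentile ran from 2134 to 2348, highest on STAP-2-/- 2, and between 68.4% and 70.5% of spots were well above background. Stap2 read 2.92 and 2.98 on the WT arrays and on both STAP-2-/- arrays (-6.63 and -7.72) its spot did not clear background well, so each array carried the level its genotype label calls for. Of the 12 members with several probes, 10 had more than 1 probe above background on all arrays, and for 0 of those 10 did the probes disagree on which STAP-2-/- pool was higher. The order of the 4 arrays could still differ between probes, as it did for Oas1a, Cmpk2, Dtx3l, Herc6, Adar, Ddx58 and Zbp1.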

How the data were processed

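RNA of 4 pools of 3 mice was measured on 4 one-colour Agilent arrays. Per the file headers, the deposited intensity of a spot is its processed signal, from which local background was subtracted and a spatial trend removed; the tool was Agilent Feature Extraction 10.7.1.1 (per the submitters' processing notes). A value table, also deposited by the authors, gives a ratio, the processed signal over 1 constant per array (within 1% for at least 99.94% of probes, column medians 0.084 to 0.091), linear and not centred by gene, used as an alternative.

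Values are log2(signal) minus the array's 75th percentile over non-control spots, with outlier-flagged spots missing and spots of a probe averaged. Of 39429 probes, 27427 were named through RefSeq accessions (GRCm38.p6 table); the array's annotation uses another build, so the table gave names and neighbour order, and its own promoter windows. Genes whose brightest probe was well above background on at least 2 of 4 arrays were tested (15806). Genotypes (main test, no covariate) and pool numbers were compared with limma 3.58.1 (lmFit, eBayes; R 4.3.3), Benjamini-Hochberg, threshold 0.05; the fit was tested on simulated data. All 4 arrays lay on 1 slide from 1 scan, so neither could be tested as a batch. No spot was saturated. The number of arrays limits the precision.

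Members and lists were chosen with earlier results of these data known. Every member with a probe is named with its 4 values; of the signalling list any gene could be named (the values of 1 are not reported here), of the further list the 6 with the highest mean, and of marker lists those written first; Cd8a, Prf1, Gzma, Gzmb, Nkg7 and Ms4a1 were singled out after their values were seen. Alternatives were other scalings, normexp background correction (offset 50), the authors' table, flagged spots kept, mean of probes, other filters on dim probes (1 chosen after seeing the data), a trended robust fit, genotype as a term, the replicate number as a block, and each array left out. Tables and figures were made in Python 3.11.15 (matplotlib 3.10.9, pandas 2.3.3, numpy 2.4.6).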

Additional observations from a re-analysis of the deposited data

Results flagged for a closer look

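For 17 members the pool difference, number 2 minus number 1, was below 0 in WT and above 0 in STAP-2-/-, and for 7 of them both differences were larger than 0.14, the size that repeated spots of 1 array can give, with both arrays of a genotype counted as 1 difference. No share over all genes is given for these counts, so they are not read as a trait of the members. The difference between the genotypes was not tested, since each rests on 1 pair of arrays. STAP-2-/- less WT came to 2.13 for Oasl2 (1.87 against -0.255), 1.57 for Ifit3 (1.34 against -0.232), 1.24 for Xaf1 (1.01 against -0.221) and 1.20 for Zbp1 (1.02 against -0.177). It came to 1.12 for Oasl1 (0.966 against -0.158), 1.12 for Dhx58 (0.797 against -0.324) and 0.974 for Oas1g (0.370 against -0.604). For Oas1g the WT side is the wider of the pair, and for the other 6 the STAP-2-/- side is.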

How the results depend on the processing

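No member was called in any alternative of either comparison, and the lowest adjusted p of a member, by limma, was 0.611 for genotype (without STAP-2-/- 1) and 0.0932 for pool number (trended robust fit). The median genotype difference ran from -0.022 (without STAP-2-/- 2) to 0.95 (without STAP-2-/- 1), and the median pool number difference from -0.021 (without STAP-2-/- 2) to 0.88 (without WT 2). Where leaving out an array leaves 1 in a group, that array is assumed to vary like the others. Among all genes, normexp background correction called 1 gene lower between the genotypes. The pool number calls, 2 higher and 2 lower, became 0 and 0 with normexp background correction, probes averaged within a gene, only probes above background on all 4 arrays, no filter on dim probes, the trended robust fit, genotype as a term and probes above background on both arrays of a genotype. They were also 0 and 0 without any 1 array. The cause was not tested.

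With the replicate number as a block, no gene was called between the genotypes, and the lowest adjusted p of a member was 0.722. Deviations from the genotype means correlated between arrays of equal number (r = 0.544 over 15806 genes), but 2 numbers and the labels do not show a pairing, so this result is not read further.

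Signs of single uncalled differences turned as follows. With 1 array left out, the genotype difference was lowest without STAP-2-/- 2 and highest without STAP-2-/- 1 for 16 members: Ifit1 -0.61 to 1.76, Ifit2 -0.90 to 1.92, Ifit3 -0.19 to 1.15, Oas2 -0.43 to 2.00, Oasl1 -0.057 to 0.91, Rsad2 -0.42 to 1.06, Cmpk2 -0.45 to 1.41, Ifi44 -0.29 to 2.69, Bst2 -0.17 to 1.09, Samd9l -0.38 to 0.55, Usp18 -0.18 to 1.84, Ddx58 -0.090 to 0.42, Zbp1 -0.22 to 0.80, Eif2ak2 -0.16 to 0.42, Parp14 -0.12 to 0.61, Dtx3l -0.069 to 0.66. It was lowest without WT 2 and highest without WT 1 for Oas1a (-0.081 to 0.39), Oas1g (-0.020 to 0.58) and Ifi27 (-0.10 to 0.28). The pool number difference was lowest without STAP-2-/- 2 and highest without WT 2 for 17 members: Ifit3 -0.079 to 1.19, Oas1a -0.42 to 0.0070, Oas1g -0.50 to 0.27, Oas3 -0.22 to 2.91, Oasl1 -0.091 to 0.90, Oasl2 -0.26 to 1.88, Xaf1 -0.24 to 1.03, Rtp4 -0.022 to 1.17, Herc6 -0.11 to 1.34, Ifih1 -0.17 to 0.099, Dhx58 -0.33 to 0.81, Zbp1 -0.021 to 0.87, Adar -0.11 to 0.45, Irf7 -0.20 to 1.17, Irf9 -0.048 to 0.39, Trim30a -0.18 to 0.78, Ifi35 -0.11 to 0.40. For Trim25 it ran from -0.065 (without STAP-2-/- 1) to 0.021 (without WT 1). Scaling turned the pool number difference of Oas1g (0.052 with quantile normalization), Trim25 (0.053 with quantile normalization, 0.043 with median scaling) and Ifih1 (0.0065 and 0.028). For Ifih1 it was also 0.0016 with normexp background correction and 0.047 with the mean of probes, where Xaf1 gave -0.0090. No scaling, background, probe or filter alternative turned the sign of a member's genotype difference.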
